A study of Mus musculus with 6 samples.

Results

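The GATA transcription factors and their FOG cofactors were followed in embryonic tissue taken from below and above the mouse aorta. The family was defined by gene symbol, as Gata1 to Gata6, the antisense gene Gata6os and the FOG genes Zfpm1 and Zfpm2, and these 9 genes were found among the 24015 named genes of the array. It was picked with the ventral minus dorsal differences of these same arrays known, so these differences are given for its members as a description, without p-values. Where a member is said to pass a threshold, or an interval is given, this too only describes the fit over all genes. It is no independent test of the member. Ventral tissue lay underneath the dorsal aorta, and dorsal tissue lay between its roof and the notochord. Both came from unfixed C57Bl/6 embryos at embryonic day 11.5, were cut from stained cryosections by laser microdissection, and carried no transgene or treatment. There were 3 ventral and 3 dorsal arrays, given as biological replicates, and so few arrays limit how precisely any level is known. How many embryos went into an array is not given in the sources used here, so the spread is that between these samples. Levels are log2 values of the deposited table, and a level of one gene says nothing about that of another, since their probes differ.

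GATA factors are zinc-finger proteins that bind the DNA word GATA, and FOG proteins attach to the first of their fingers and bring in corepressor complexes. Gata1, Gata2 and Gata3 are known for blood, hematopoietic stem cell, T cell and sympathetic neuron development. Gata4, Gata5 and Gata6 are known for heart, gut, gonad and visceral mesoderm. The region around the aorta is where the first hematopoietic stem cells of the embryo arise, and Gata2 is needed for their formation.

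Gata6 and Zfpm2 were higher in ventral tissue. Gata4, Gata5 and Gata6os had every ventral array above every dorsal one, and Gata1 the reverse, without passing the threshold, and Zfpm1, Gata2 and Gata3 overlapped. A gene was tested when its mean over the 6 arrays reached the median of all probe sets (4.52), which 8 of the 9 members did and Gata2 did not. In the limma fit over 12028 genes, 2 members, Gata6 and Zfpm2, passed an adjusted p of 0.05, both higher in ventral tissue. Of all genes tested, 0.515% passed, and as the family was picked on this contrast nothing is read from the comparison. Without the replicate number in the model the same 2 members passed, where 0.491% of all genes did. The arrays of the tissues did not overlap for 6 of the 9 members, ventral above dorsal for 5 and dorsal above ventral for 1. This held for 12.2% of all named genes, with ventral above dorsal for 6.24% and dorsal above ventral for 5.97%.

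**Figure D1:**
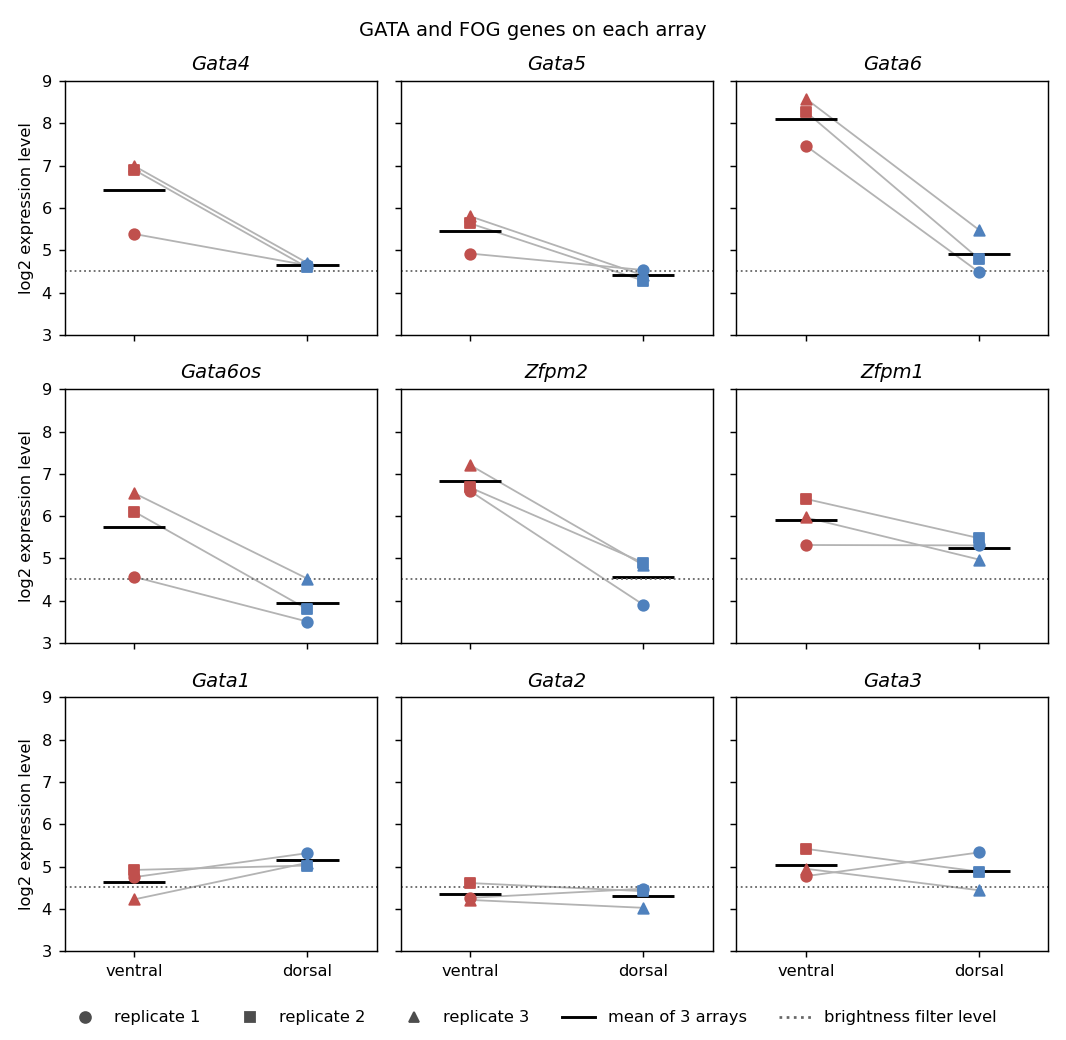
The log2 expression level of each of the 9 genes on the 3 ventral arrays (left, red) and the 3 dorsal arrays (right, blue). Marker shapes give the replicate number, grey lines join arrays of the same number, black bars are means and the dotted line is the brightness filter level of 4.52. Ventral and dorsal arrays are apart for Gata4, Gata5, Gata6, Gata6os, Zfpm2 and Gata1, and overlap for Zfpm1, Gata2 and Gata3.

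Gata6, a factor of endoderm, heart and visceral mesoderm, had levels of 7.47, 8.27 and 8.58 on ventral arrays 1, 2 and 3, against 4.48, 4.79 and 5.48 on dorsal arrays 1, 2 and 3. Every ventral array lay above every dorsal array, with 1.99 (log2) separating the nearest ones. The means were 8.11 ± 0.57 in ventral and 4.92 ± 0.51 in dorsal tissue (SD, n = 3 each), for a log2 difference of 3.19 ± 0.19 (SE). That is 9.13-fold on this scale, but dorsal 1 lay below the filter level, so the ratio of transcript is not exact. The differences within same-numbered pairs were 2.99, 3.48 and 3.10, so the difference varied less between pairs than the level did within either tissue. Gata6 was past the threshold with and without the replicate number in the model, without the brightness filter, and without each pair of arrays. In the model without the replicate number it was not past when ventral 2 (3.11 ± 0.41), ventral 3 (2.95 ± 0.36), dorsal 1 (2.97 ± 0.37) or dorsal 2 (3.13 ± 0.41) was left out.

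Gata6os is a long noncoding RNA gene on the strand opposite to Gata6, and the spans of the genes overlap at their starts in the RefSeq gene table. Whether any probe lies in the shared stretch is not given in the sources used here, so their signals are not known to be separate. Gata6os had levels of 4.57, 6.11 and 6.55 on ventral arrays 1 to 3, against 3.51, 3.80 and 4.52 on dorsal arrays 1 to 3. The tissues just failed to meet, since ventral 1 lay 0.04 above dorsal 3. Its log2 difference was 1.80 ± 0.27, which did not pass, and without replicate 1 it was 2.17 ± 0.24, which did, as did 2.38 ± 0.32 with ventral 1 left out and no pairing. Its dorsal mean of 3.94 ± 0.52 lies below the filter level, so that the ratio of transcript cannot be read from it. In both tissues replicate 1 held the lowest and replicate 3 the highest value of Gata6os, as of Gata6.

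Gata4, which acts in the heart, the gonadal ridge and the lateral mesoderm, had levels of 5.39, 6.90 and 7.0 on ventral arrays 1 to 3, against 4.64, 4.59 and 4.70 on dorsal arrays 1 to 3. The dorsal arrays lay within a narrow band just above the filter level (SD 0.05), and ventral 1 was well below the other two ventral arrays. The means were 6.43 ± 0.90 in ventral and 4.65 ± 0.05 in dorsal tissue, for a log2 difference of 1.78 ± 0.34 that did not pass the threshold. Without replicate 1 the difference was 2.30 ± 0.23 and passed, and with ventral 1 left out and no pairing it was 2.30 ± 0.17 and passed. The pair differences of Gata4 were 0.74, 2.31 and 2.30.

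Gata5, the third factor of this branch, showed the same arrangement of arrays. It had 4.92, 5.64 and 5.80 on ventral arrays 1 to 3, against 4.53, 4.28 and 4.41 on dorsal arrays 1 to 3. All ventral arrays were above the dorsal ones, and ventral 1 was again the lowest of the ventral arrays. Its log2 difference of 1.05 ± 0.25 did not pass. With ventral 1 left out and no pairing it was 1.31 ± 0.18, which did.

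Zfpm2 encodes FOG2, the partner of GATA4 in the developing heart and gonad. It had levels of 6.60, 6.68 and 7.21 on ventral arrays 1 to 3, against 3.91, 4.90 and 4.85 on dorsal arrays 1 to 3. The tissues were separated by 1.70 (log2), and dorsal 1 was the lowest array of all. The means were 6.83 ± 0.33 in ventral and 4.55 ± 0.56 in dorsal tissue, for a log2 difference of 2.28 ± 0.22. The dorsal mean lies close to the filter level and dorsal 1 below it, so no exact ratio is given. Pair differences were 2.69, 1.78 and 2.36. Zfpm2 was past the threshold with and without pairing, but not without the brightness filter (SE 0.21) and not without replicate 3 (2.23 ± 0.29). In the model without pairing it passed without ventral 1 (2.39) and with no other single array left out (1.96 without dorsal 1 to 2.45 without dorsal 2).

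Zfpm1 encodes FOG1, the partner of GATA1 in red cell and platelet precursors. It had levels of 5.32, 6.41 and 5.97 on ventral arrays 1 to 3, against 5.31, 5.48 and 4.97 on dorsal arrays 1 to 3. The tissues overlapped, because ventral 1 lay below dorsal 2. The log2 difference of 0.64 ± 0.24 did not pass, and its 95% interval ran from 0.06 to 1.23. Pair 1 differed by 0.01, and pairs 2 and 3 by 0.93 and 1.00.

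**Figure D2:**
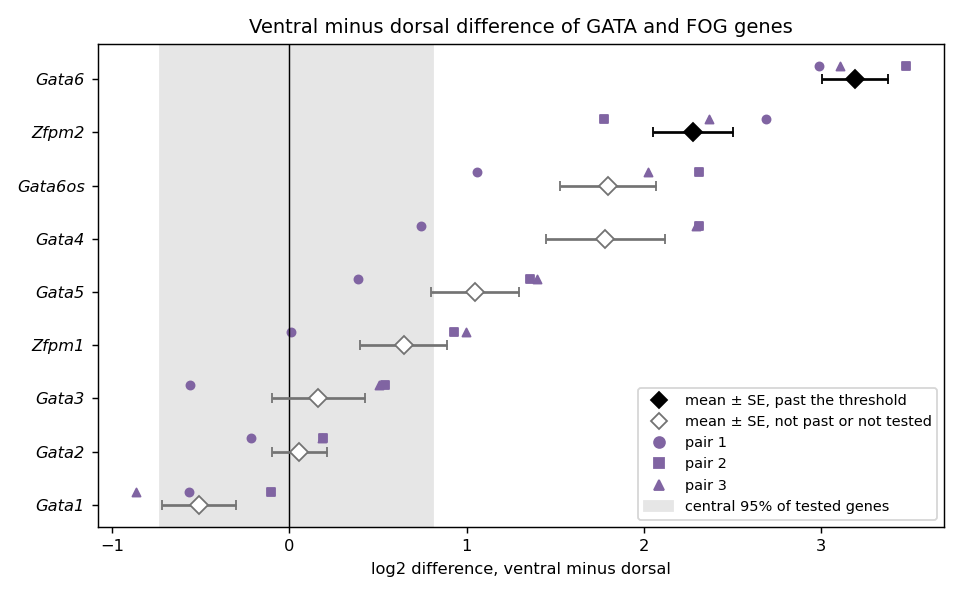
Log2 difference, ventral minus dorsal, of each of the 9 genes. Diamonds with bars are the mean ± SE of the limma fit (filled where past the threshold, the SE of Gata2 being from the fit without the brightness filter), small markers are the 3 same-numbered pairs, and the grey band holds the central 95% of all tested genes (−0.73 to 0.81). Pair 1 is the lowest of the 3 pairs for Gata6, Gata6os, Gata4, Gata5, Zfpm1, Gata3 and Gata2 and the highest for Zfpm2.

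Gata1, the master factor of red cells, platelets and mast cells, ran the other way. It had levels of 4.75, 4.92 and 4.23 on ventral arrays 1 to 3, against 5.32, 5.03 and 5.09 on dorsal arrays 1 to 3. All dorsal arrays were above the ventral ones, by only 0.10 (log2) at the nearest point. The ventral mean of 4.63 lies close to the filter level and ventral 3 below it. The log2 difference was −0.51 ± 0.21 and did not pass, and it stayed between −0.72 and −0.31 over 15 alternatives.

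Gata2, the factor most tied to hematopoietic stem cells, had levels of 4.26, 4.61 and 4.21 on ventral arrays 1 to 3, against 4.48, 4.42 and 4.03 on dorsal arrays 1 to 3. A single array, ventral 2, reached the filter level. In the fit without the filter its log2 difference was 0.05 ± 0.16, with a 95% interval of −0.34 to 0.45. In such bulk tissue fewer cells of a type and less RNA per cell cannot be told apart.

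Gata3, known in T cells, sympathetic neurons and the nephric duct, had levels of 4.78, 5.42 and 4.95 on ventral arrays 1 to 3, against 5.34, 4.88 and 4.44 on dorsal arrays 1 to 3. The tissues overlapped. The pair differences were −0.56, 0.54 and 0.51, and the log2 difference was 0.16 ± 0.26 with a 95% interval of −0.47 to 0.79. Its sign turned without replicate 2 (−0.027) and without replicate 3 (−0.012), so no side can be given.

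Ventral 1 was the lowest ventral array for 7 of the 9 members, namely Gata3, Gata4, Gata5, Gata6, Gata6os, Zfpm1 and Zfpm2. The tissue on that array also differed in its marker genes. The mean log2 level of 11 smooth muscle genes was 7.94, 7.10 and 6.53 on ventral arrays 1 to 3, against 6.01, 6.44 and 5.56 on dorsal arrays 1 to 3, highest on ventral 1. That of 9 sympathoadrenal genes was 5.18, 6.56 and 6.76 on ventral arrays 1 to 3, against 7.01, 6.99 and 5.92 on dorsal arrays 1 to 3, lowest on ventral 1. All 11 smooth muscle genes had positive log2 differences, with a median of 0.76. In limma 7 of them had an unadjusted p under 0.05, as 10.7% of all tested genes had in either direction. Rgs5 alone passed (2.18 ± 0.24), where 0.308% of all tested genes passed higher in ventral tissue. The part of smooth muscle or sympathoadrenal cells in the Gata levels, also in the low ones of ventral 1, was not tested.

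Liver and gut markers were considered because Gata4 and Gata6 are active in endoderm. The mean of the list was high on both replicate 3 arrays, where 11 tested genes averaged 7.89 in ventral 3 and 7.22 in dorsal 3. On the other arrays they averaged 4.51 and 4.37 in ventral tissue, against 4.72 and 4.83 in dorsal tissue. Afp, the fetal serum protein of liver, had 11.6 on ventral 3 and 11.0 on dorsal 3, and 3.64 to 4.82 on the other arrays. Alb, Ttr, Apoa1, Apoa2 and Apob also rose on both replicate 3 arrays, and Hnf4a less so. Foxa1, Epcam, Cdh1 and Shh did not rise on both. Foxa1 was at 4.27 on ventral 3, its lowest array, and at 5.52 on dorsal 3, its highest. Epcam, Cdh1 and Shh were at 4.46, 5.69 and 4.47 on dorsal 3, each below dorsal 1. On ventral 3 Epcam (5.27) and Cdh1 (7.23) had their highest level of the 6 arrays, and Shh was at 4.49, below ventral 1. Gata6 and Gata6os were highest on the replicate 3 array of each tissue, in dorsal tissue with 5.48 for Gata6 and 4.52 for Gata6os on dorsal 3. Gata4 was at 4.70 on dorsal 3, beside 4.59 and 4.64 on the other dorsal arrays. The part of liver or gut tissue in these levels was not tested. Without replicate 3 the log2 difference was 3.23 for Gata6, 1.53 for Gata4 and 0.87 for Gata5.

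Coelomic epithelium, another tissue in which Gata4 and Gata6 are active, was represented by 8 tested markers. The other 4 of the 12 listed genes lay below the brightness filter. Their differences were −0.28 for Gpm6a, −0.02 for Msln, 0.18 for Nr5a1 and 0.36 for Muc16. All 8 tested markers had positive log2 differences with a median of 0.88, and none passed. In limma 5 of these 8 had an unadjusted p under 0.05, as 10.7% of all tested genes had in either direction. The mean level of the 8 tested markers was 6.12, 5.76 and 5.93 on ventral arrays 1 to 3, against 5.24, 4.93 and 5.0 on dorsal arrays 1 to 3. Their part in the Gata4 and Gata6 differences was not tested. The dorsal tissue was marked by sclerotome and cartilage genes, of which 3 of 10 passed, all higher in dorsal tissue, where 0.208% of all tested genes passed in that direction, with means of 5.31 to 5.61 on ventral and 6.69 to 7.20 on dorsal arrays. All 10 mast cell and T cell markers, types that express Gata1, Gata2 or Gata3, were below the brightness filter.

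**Figure D3:**
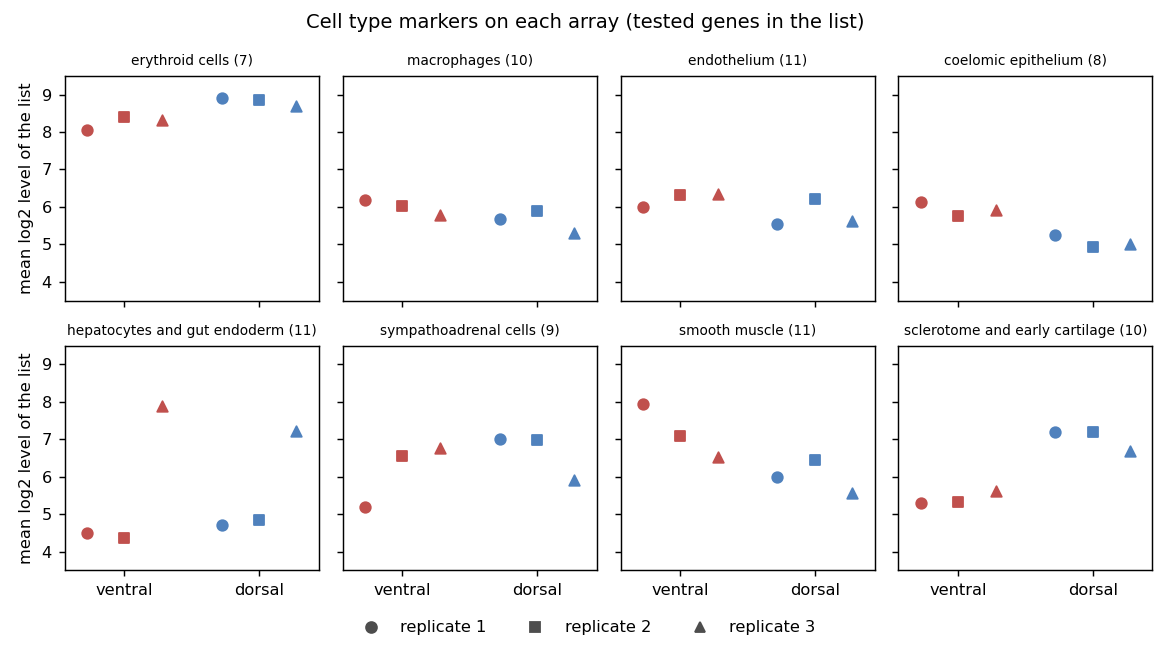
Mean log2 level of the tested genes of 8 cell type marker lists on the 3 ventral (red, left) and 3 dorsal (blue, right) arrays, with the number of genes in brackets and the replicate number as marker shape. The mean of the liver and gut list stands at 7.22 and 7.89 on the replicate 3 arrays and below 5 elsewhere. That of smooth muscle genes is highest on ventral 1, and that of erythroid genes is lower on all ventral than on all dorsal arrays.

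Partners and targets of GATA4 and GATA6 in visceral mesoderm were compared next. Of 28 such genes 22 were tested, and 2 passed, both higher in ventral tissue, where 0.308% of all tested genes passed in that direction. Positive log2 differences were found for 16 and negative ones for 6, with a median of 0.37, against 47.7% positive and a median of −0.01 over all tested genes. The list was chosen with earlier results of these data known, so nothing is read from these comparisons. Tcf21, a helix-loop-helix factor of visceral mesenchyme and the epicardium, had 7.55, 9.44 and 8.97 on ventral arrays 1 to 3, against 3.25, 5.16 and 3.45 on dorsal arrays 1 to 3. Its log2 difference was 4.70 ± 0.29 (adjusted p = 0.00347), though its dorsal mean of 3.95 lies below the filter level and gives no exact ratio. Hlx, a homeobox factor of gut mesenchyme, had 6.86, 7.41 and 7.52 on ventral arrays 1 to 3, against 5.11, 5.42 and 5.27 on dorsal arrays 1 to 3, a log2 difference of 2.00 ± 0.19 (adjusted p = 0.0183). Like Gata6, both had their lowest ventral value on ventral 1. Hlx did not pass without the brightness filter (adjusted p = 0.0647). Without pairing, Tcf21 did not pass without ventral 2 (adjusted p = 0.123), ventral 3 (0.105), dorsal 1 (0.105) or dorsal 3 (0.0644), nor Hlx without ventral 2 (0.0937), ventral 3 (0.0570) or dorsal 1 (0.0689).

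Further genes of that list had large differences that did not pass in limma. Nr2f2, an orphan nuclear receptor of veins and mesenchyme, had a log2 difference of 2.04 ± 0.38 (adjusted p = 0.113). Wt1, a zinc-finger factor of the gonadal ridge, had one of 1.29 ± 0.20 (adjusted p = 0.0715), and the LIM factor Isl1 had one of 1.50 ± 0.64 (adjusted p = 0.474). Isl1 was at 5.50 on ventral 1 and at 8.18 and 8.44 on ventral 2 and 3, an arrangement also seen for Gata4. Foxf1, a forkhead factor of splanchnic mesoderm, had 4.48, 6.67 and 5.85 on ventral arrays 1 to 3, against 8.46, 8.15 and 5.52 on dorsal arrays 1 to 3, so its sign differed between pairs 1 and 3. Ptch1, the hedgehog receptor, had −1.63 ± 0.24 (adjusted p = 0.0638). Hand2 (0.73 ± 0.26) and Bmp4 (0.64 ± 0.28), a helix-loop-helix partner of GATA4 and a secreted growth factor, did not pass, and Tbx5, the cardiac T-box partner, lay below the filter with 3.72 in ventral and 4.06 in dorsal tissue.

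**Figure D4:**
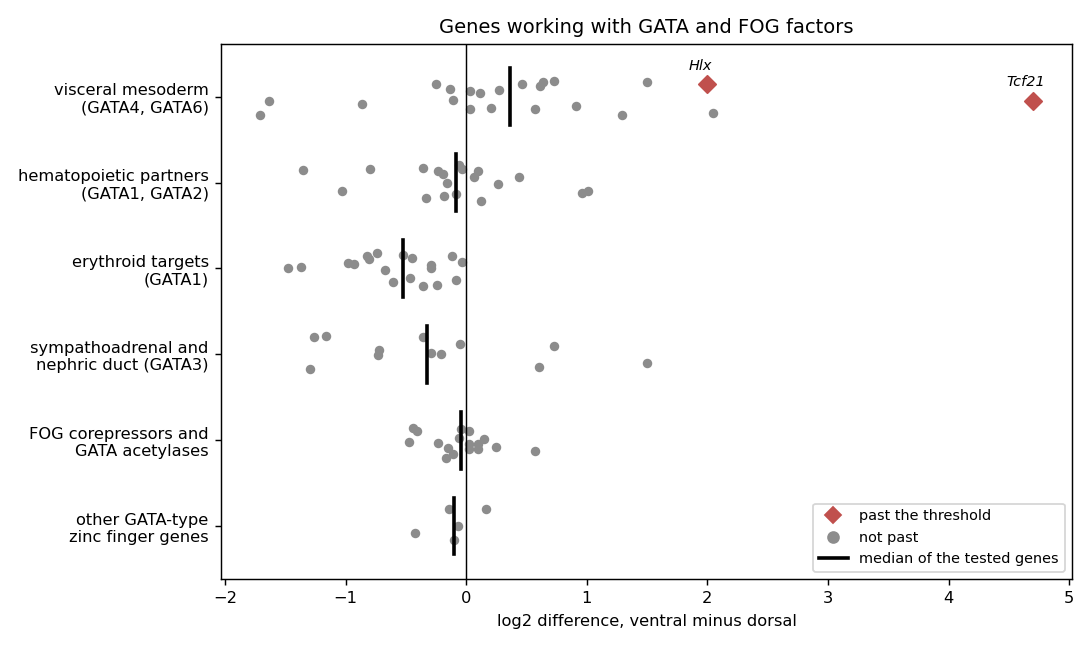
Log2 difference, ventral minus dorsal, of the tested genes of 6 lists of partners, targets and relatives of GATA and FOG factors. Each point is a gene, black bars are list medians and diamonds are genes past the threshold. Only Tcf21 (4.70) and Hlx (2.00) passed, both in the visceral mesoderm list, and all 19 erythroid genes lie below 0.

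Sequences before the starts of selected genes are printed to show where GATA words stand beside the genes just described. They are the 250 bases before the RefSeq start on GRCm38.p6, written 5′ to 3′ on the gene's strand. Capitals mark the words searched on both strands, where AGATAA was counted with its variant AGATAG, and TGATAA with its variant TGATAG as a single set. Gata5 is the member of the Gata4 to Gata6 branch with an entry, Tcf21 is the list gene with the greatest difference, and Klf1 and Alas2 are red cell genes known to be driven by GATA1. Gata4, Gata6, Gata6os and Zfpm2 are named only.
Gata5, chr2:180334680-180334929, minus strand: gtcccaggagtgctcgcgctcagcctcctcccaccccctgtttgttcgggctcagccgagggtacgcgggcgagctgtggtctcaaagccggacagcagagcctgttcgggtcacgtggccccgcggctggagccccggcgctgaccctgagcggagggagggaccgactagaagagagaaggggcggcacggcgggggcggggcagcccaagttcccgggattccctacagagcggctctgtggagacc
Tcf21, chr10:22820144-22820393, minus strand: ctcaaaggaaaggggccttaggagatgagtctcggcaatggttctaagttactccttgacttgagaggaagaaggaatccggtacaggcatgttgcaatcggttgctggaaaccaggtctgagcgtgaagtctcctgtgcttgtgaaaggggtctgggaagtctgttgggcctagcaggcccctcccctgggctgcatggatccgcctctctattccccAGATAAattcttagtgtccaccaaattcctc
Klf1, chr8:84901732-84901981, plus strand: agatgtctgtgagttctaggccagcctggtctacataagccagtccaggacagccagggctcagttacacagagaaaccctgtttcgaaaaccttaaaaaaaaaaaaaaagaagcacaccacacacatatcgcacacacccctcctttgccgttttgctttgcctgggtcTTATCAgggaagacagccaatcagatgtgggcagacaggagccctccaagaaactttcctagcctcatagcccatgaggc
Alas2, chrX:150547167-150547416, plus strand: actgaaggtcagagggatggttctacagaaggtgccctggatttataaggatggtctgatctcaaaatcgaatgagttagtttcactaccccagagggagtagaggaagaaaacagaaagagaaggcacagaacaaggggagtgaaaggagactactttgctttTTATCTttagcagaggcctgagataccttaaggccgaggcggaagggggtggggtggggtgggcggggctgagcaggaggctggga
Tcf21 held AGATAA 31 bases before its start, and Klf1 and Alas2 held a word on the opposite strand 80 and 86 bases before theirs. Hlx, the other list gene past the threshold, held no word and is not printed. None of 6 starts of 5 members with an entry held a word, where 26.5% of 32851 starts did. Among list genes 16 of 24 starts of erythroid genes (66.7%) and 10 of 24 of visceral mesoderm genes (41.7%) held one. The share was 28.6% for the hematopoietic partners (8 of 28), 17.6% for the genes linked to GATA3 (3 of 17), 6.67% for the corepressors (1 of 15) and 3 of 6 for other GATA-type genes. A match describes the letters and shows no binding.

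Red cell genes driven by GATA1 were lower in ventral tissue by their means throughout, though none passed. Of 28 such genes 19 were tested, all 19 had negative log2 differences, and the median was −0.52. In limma 8 of them had an unadjusted p under 0.05, all lower in ventral tissue, where 10.7% of all tested genes had one in either direction. The arrays did not overlap for 10 of the 19, all with dorsal above ventral, which held for 7.88% of all tested genes. This list too was chosen with earlier results of these data known, so the shares are a description. Hemgn, a nuclear protein of red cell precursors, had a log2 difference of −1.48 ± 0.28 (adjusted p = 0.118). Values were −1.37 ± 0.25 for Car2, a carbonic anhydrase, −0.98 ± 0.21 for Ermap, a red cell membrane protein, and −0.93 ± 0.26 for Alas2, the first enzyme of heme synthesis. Klf1, the red cell factor that acts with GATA1, had 5.68, 6.02 and 5.16 on ventral arrays 1 to 3, against 6.29, 6.40 and 5.99 on dorsal arrays 1 to 3 (−0.61 ± 0.18, adjusted p = 0.293). Its lowest array was ventral 3, as it was for Gata1. The mean level of the 19 genes was 6.55, 6.99 and 6.96 on ventral arrays 1 to 3, against 7.50, 7.36 and 7.41 on dorsal arrays 1 to 3.

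The hematopoietic partners of GATA1 and GATA2 did not lean to a side. None of 19 tested genes passed in limma, and the median log2 difference was −0.09. An unadjusted limma p under 0.05 was found for 3 higher and 3 lower in ventral tissue, where 10.7% of all tested genes had one. Among members of the blood stem cell complex, Tal1 (−0.06 ± 0.17) and Ldb1 (0.12 ± 0.17) overlapped between the tissues. Lmo2 (0.44 ± 0.18) had every ventral array above every dorsal one and did not pass. The greatest differences were in Mecom (−1.35 ± 0.19, adjusted p = 0.0583) and Myb (−1.03 ± 0.18, adjusted p = 0.0873), a zinc-finger and a proto-oncogene factor of stem cells, and in the stem cell factor receptor Kit (1.01 ± 0.19, adjusted p = 0.118). Runx1, which is required for stem cells to leave the aortic wall, had 5.50, 4.82 and 5.30 on ventral arrays 1 to 3, against 4.10, 4.86 and 3.78 on dorsal arrays 1 to 3. Dorsal 2 lay above ventral 2, and its log2 difference of 0.96 ± 0.33 did not pass (adjusted p = 0.354). Spi1, the myeloid factor that GATA1 opposes, had 0.10 ± 0.19. With ventral 1 left out and no pairing, Kit passed with 1.13 ± 0.18 (adjusted p = 0.0433), and so did Nr2f2 of the visceral list with 2.37 ± 0.34 (adjusted p = 0.0342).

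Several genes linked to GATA3 varied widely within a tissue. Of 12 tested sympathoadrenal and nephric duct genes none passed in limma, and the median log2 difference was −0.33. An unadjusted limma p under 0.05 was found for 2 higher and 1 lower in ventral tissue, where 10.7% of all tested genes had one. Dbh, the enzyme that makes noradrenaline, had 5.44, 8.13 and 8.59 on ventral arrays 1 to 3, against 9.55, 9.66 and 6.75 on dorsal arrays 1 to 3. Th, the enzyme of the first step of catecholamine synthesis, had 4.68, 5.87 and 6.33 against 7.01, 6.96 and 5.09 on the same arrays. Both were lowest on ventral 1 among ventral and on dorsal 3 among dorsal arrays, which are also the lowest arrays of Gata3 in each tissue. Stmn2 (−1.30 ± 0.33), a neuronal growth protein, and Chgb (−1.17 ± 0.95), a granule protein, did not pass. The nephric duct genes Pax2, Pax8 and Lhx1 lay below the filter. Emx2 of the same list also did by its mean, but not on every array. It had 3.62, 3.23 and 3.24 on ventral arrays 1 to 3, against 5.01, 3.66 and 7.98 on dorsal arrays 1 to 3.

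The machinery that FOG proteins recruit showed small differences between the tissues. None of 17 tested corepressor and acetylase genes passed in limma. An unadjusted limma p under 0.05 was found for 2, both lower in ventral tissue, where 10.7% of all tested genes had one in either direction. Differences of the 17 genes ran from −0.48 to 0.57 with a median of −0.04. Chd4, the remodelling ATPase of the NuRD complex, had a log2 difference of 0.10 ± 0.19, and the FOG-binding corepressor Ctbp2 had one of −0.41 ± 0.18. The extremes were the NuRD subunits Mta3 (0.57 ± 0.25), Mbd3 (−0.48 ± 0.19) and Chd3 (−0.44 ± 0.18). Of 5 tested genes for other proteins with a GATA-type finger none passed, and none had an unadjusted p under 0.05. Trps1, a repressor that binds GATA words, had −0.43 ± 0.20, and Gatad2a, Rere and Gatad2b had 0.16, −0.14 and −0.10.

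Genes that resembled a member were sought by the root mean square difference of mean-centred log2 levels over the 6 arrays, where 0 is an identical profile. The profile closest to Gata6 was Tmtc2 (0.40), an enzyme gene of cadherin glycosylation, followed by the kinase-like Gask1b (0.46), Zfpm2 (0.56) and the matrix gene Tnc (0.57). Zfpm2 was closest to Adgrl3 (0.30), Ntrk3 (0.31), Hlx (0.32) and Pcdh7 (0.34), genes of an adhesion receptor, a neurotrophin receptor, the gut homeobox factor and a protocadherin. Gata4 was closest to Adam12 (0.11), a metalloprotease gene, then Abcg2 (0.16), Slit2 (0.23) and Amph (0.23). Gata4 was also the member closest to Gata6os (0.31), while Gata6 differed from Gata6os by 0.75. Gata5 was closest to Igdcc4 (0.12), and Zfpm1 to the elastin gene Eln (0.11). Gata1 was closest to H2bc3 (0.09) and Gata3 to Ak1 (0.08). All genes share the same 6 arrays.

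Genes beside Gata6 and Zfpm2 in the RefSeq gene table had small differences or were too dim to test. Next to Gata6, the nearest named genes with a row other than Gata6os were Mir1a-2, Gm6277 and Cables1, all below the filter. Gm6277 and Cables1 differed by −0.06 and −0.24. Mir1a-2, a muscle microRNA gene, was at 7.13 on ventral 1 and between 1.80 and 3.28 on the other 5 arrays. Next to Zfpm2, Oxr1 was the only gene tested, with a log2 difference of 0.18 ± 0.17 (adjusted p = 0.795), and 9330182O14Rik, Gm16294 and Abra were below the filter, with differences of 0.14, −0.17 and −0.22.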

How the data were processed

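RNA of ventral and dorsal aortic tissue was amplified from very small amounts and read on whole-transcript Affymetrix arrays, per the labels' protocols. Such amplification can distort ratios of weak transcripts, and arrays compress differences near background. The authors deposited a log2 level for each gene on each array, made with Affymetrix Expression Console and RMA per the submitters' processing notes. The software versions and the build behind the probe sets were not used here. Array medians were 4.49 to 4.55, and arrays correlated by 0.956 to 0.976 over all 24973 probe sets, of which 24015 had 1 symbol in the platform table and 958 are unnamed here.

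Ventral minus dorsal was tested two-sided with limma 3.58.1 in R 4.3.3 by lmFit and eBayes, with the replicate number as a block and Benjamini-Hochberg adjustment over 12028 genes at or above the median level of 4.52. The fit was tested on simulated data. Adjusted p come from this fit unless another is named. SE are moderated, with 6.41 degrees of freedom. Per the labels both tissues came from the same embryos, which is why the number is a block, but no label ties a number to an embryo. After subtracting tissue means, arrays that share a number had correlations of 0.0992, 0.0763 and 0.226, and those that do not had −0.153 to 0.0805, so these values do not establish a pairing.

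The members and lists were chosen with earlier results of these data known. Their counts beside the shares of all genes are therefore descriptions only. Named were all members, list genes past the threshold, up to 4 more list genes with the greatest differences, list genes of fixed interest, the 4 nearest profiles (predicted genes left out) and 2 neighbours on each side of Gata6 and Zfpm2. Afp and the other liver and gut genes were named after their values were seen. Promoter sequences are RefSeq's (GRCm38.p6). Alternatives were other pairing, filters, scaling and left-out arrays.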

Additional observations from a re-analysis of the deposited data

How the results depend on the processing

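Alternatives changed 1 choice of the limma fit, except that leaving out a single array also took the replicate block out, so those counts stand beside the 59 without the block. The count of genes past the threshold was 62, against 59 without the replicate block (45 of them shared). It was 10 without the brightness filter (9 of them shared) and 94 with a mean-variance trend. With a pair or an array left out it was 12 to 107, namely 107 without ventral 1, 12 without ventral 2 or dorsal 1, 15 without ventral 3, 22 without dorsal 2 and 39 without dorsal 3. Members past the threshold numbered 2, against 1 without the filter, 3 with the trend and 0 to 5 with a pair or an array left out, with 5 without ventral 1 and 4 without replicate 1. The visceral mesoderm list had 2 genes past the threshold, against 1 without the filter, 3 with the trend and 0 to 3 with arrays left out. The hematopoietic list had 0 to 1 with arrays left out, and the erythroid list had 1 (Car2) with the replicate number as a random block. The causes of these changes were not tested.

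The fit without the replicate block changed no call of a member. Among members with a difference in the main model, Gata3 alone changed sign, to −0.027 without replicate 2, −0.012 without replicate 3, −0.025 without ventral 2 and −0.061 without dorsal 3, over a range of −0.061 to 0.52 with arrays left out. Gata6 passed in 12 of 16 alternatives and Zfpm2 in 9 of 16. Where 1 array was left out without pairing, a tissue had 2 arrays, and the spread was shared between tissues. Gata2, the dorsal levels of Gata4, Gata5, Gata6os and Zfpm2, and dorsal 1 of Gata6 lie near or below the filter level. So do the ventral levels of Gata1 and dorsal 3 of Gata3. There signal over background limits what can be read.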
